A study of Mus musculus with 10 samples.

Results

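The small heat shock proteins of muscle were examined as 8 genes: Hspb1, Hspb2, Hspb3, Hspb6, Hspb7, Hspb8, Cryab (alpha-B-crystallin) and Bag3. Bag3 is not itself a small heat shock protein but a co-chaperone that binds them. A gene was taken where a probe set of the array carried its symbol and no other, and where several did, the one with the highest mean over all arrays was kept. That gave 7 of the 8 genes, out of 22180 genes measured. Hspb2 has only a probe set that also carries the symbol of Cryab, so it is not reported. The values come from gastrocnemius, a mixed but mostly fast calf muscle, of 10 male mice of the outbred NMRI stock, with 1 array per mouse. Of these, 5 mice received a natural-ingredient diet low in carnitine (below 5 mg per kg), and 5 received that diet with 1000 mg L-carnitine added per kg. Mice of both groups came from an experiment with 60 animals, which started at 3 weeks of age with 5 mice per cage. These animals were killed at 9, 15 or 18 months. Which age the array mice had, and which cages they came from, is not given in the sources used here. Array values are log2 values from RMA, which makes arrays comparable but hides any difference in total RNA, and all differences are carnitine minus control.

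Small heat shock proteins share the alpha-crystallin domain, assemble into oligomers and hold unfolding proteins without using ATP until chaperones of the Hsp70 class take over. In striated muscle they sit on the Z-disc, on desmin and on titin, and several of them are more abundant in slow than in fast fibres. BAG3 joins HSPB8 to Hsp70 in chaperone-assisted selective autophagy, which removes damaged filamin from the Z-disc. Mutations in the human CRYAB and BAG3 genes cause myofibrillar myopathy.

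Heat shock factor 1 binds inverted repeats of GAA, and the promoters are shown here with their matches to such a repeat. Whether heat shock factor 1 binds at these matches was not tested. RefSeq windows (GRCm38.p6, 250 bases before to 50 after a transcription start) were matched by symbol for 6 of the 8 genes, 7 windows in all, with 2 starts for Hspb6. Hspb2 and Cryab had no entry. The motif GAANNTTC, which reads the same on both strands, was found in 5 of these 6 genes, against 9.04% of 27025 genes with a window (7.86% of all 32851 windows). Each line below gives 30 bases, 5′ to 3′ on the strand of the gene, with the motif in capitals. Positions are counted from the first base of the transcript as 1, with negative positions before it. In Hspb1 the motif starts at -117 and at -97 (chr5:135887791-135887820 and chr5:135887811-135887840, plus strand), in Hspb6 at -120 from the downstream start (chr7:30553170-30553199, plus strand) and in Hspb3 at -224 (chr13:113663882-113663911, minus strand). In Hspb8 it starts at 3 (chr5:116422844-116422873, minus strand) and in Bag3 at 43 (chr7:128523603-128523632, plus strand), both within the first exon.
Hspb1 distal: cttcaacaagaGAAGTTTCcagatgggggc
Hspb1 proximal: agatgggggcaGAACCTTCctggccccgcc
Hspb6: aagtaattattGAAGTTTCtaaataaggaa
Hspb3: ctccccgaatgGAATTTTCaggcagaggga
Hspb8: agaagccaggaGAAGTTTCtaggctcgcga
Bag3: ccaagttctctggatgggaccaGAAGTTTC

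The same 8 letters, GAAGTTTC, occurred in 4 genes (Hspb1, Hspb6, Hspb8 and Bag3), against 1.35% of genes with a window, counted on both strands. That octamer is 1 of the forms of GAANNTTC and was picked after the windows had been read. The inverse arrangement TTCNNGAA, found in 9.6% of genes with a window, was in none of the 6 genes. Hspb7 had no match to either arrangement in its window. An E-box (CANNTG), the motif of the myogenic factors, was present in Hspb1, Hspb3, Hspb7 and Hspb8, and it is in 75% of genes with a window. A match to the MEF2 motif, present in 2.16% of genes with a window, was found in Hspb3 alone of the 6 genes, ending at -3 (chr13:113663670-113663699, minus strand), and is shown in capitals.
Hspb3, MEF2: cgcagaggcggCTATAAATAGccattcatt

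No gene of the array passed an adjusted p of 0.05 in limma (0 of 22180, or 0%), while 1546 genes (6.97%) had an unadjusted p below 0.05. Of the 7 genes described here, 1 had an unadjusted p below 0.05, Hspb8, which was higher in carnitine muscle (3.14% of all genes were on that side). A positive difference was found in 3 of the 7 genes (Hspb8, Hspb3 and Bag3), against 47.7% of all genes, and the median of the 7 differences was -0.01, against -0.008 over all genes. Groups without overlap were found for Hspb8 and for 1.11% of all genes. All 7 genes lay above the median gene in mean signal, and the 11089 genes there were shifted upward, with 67.8% positive differences, a median of 0.06, 6.66% with an unadjusted p below 0.05 and 5.34% with such a p and a higher level in carnitine muscle.

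**Figure D1:**
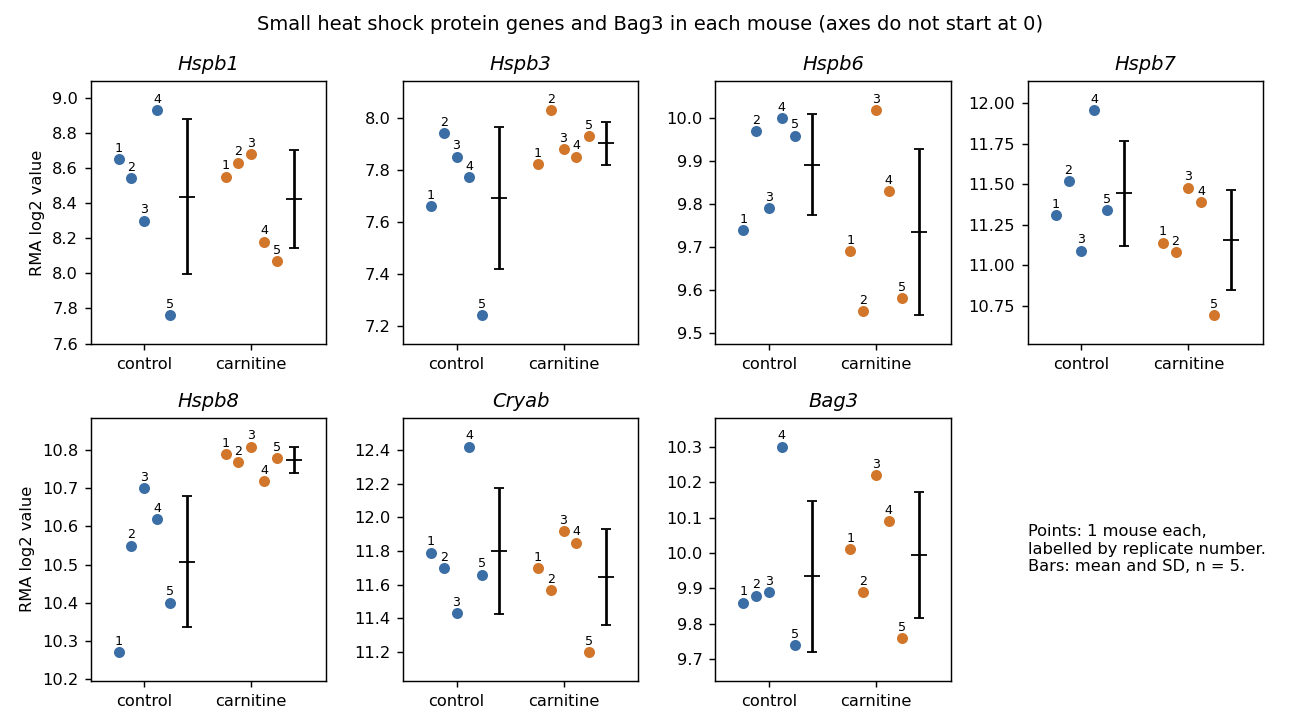
RMA log2 values of the 7 genes in each of 10 mice, control on the left and carnitine on the right of each panel, with replicate numbers beside the points and the mean and SD of 5 mice as bars. The 5 carnitine values of Hspb8 lie between 10.72 and 10.81, above all control values, while control mouse 4 is the highest of all mice in Hspb1, Hspb7, Cryab and Bag3.

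Hspb8 encodes the small heat shock protein that works in a complex with BAG3. Its control values were 10.27, 10.55, 10.70, 10.62 and 10.40 in mice 1 to 5, and its carnitine values were 10.79, 10.77, 10.81, 10.72 and 10.78. The lowest carnitine mouse lay just above the highest control, and the carnitine mice were much closer together. The means were 10.51 ± 0.17 and 10.77 ± 0.034 (SD, n = 5 mice each), so the level was 1.20-fold as high with carnitine. The difference was 0.27 (SE 0.087, 95% confidence interval 0.08 to 0.45, unadjusted p 0.0084 in limma, rank 247 of all genes by p). After adjustment over all genes the p was 0.71, so it did not pass. The difference stayed positive when any single mouse was left out, between 0.21 and 0.31, and it was 0.18 after cyclic loess scaling. Its unadjusted p was below 0.05 in all 20 alternatives (0.0026 to 0.045), and its adjusted p ranged from 0.38 to 0.90 in them.

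Bag3 did not share this separation. Its control values were 9.86, 9.88, 9.89, 10.30 and 9.74, and its carnitine values were 10.01, 9.89, 10.22, 10.09 and 9.76. The groups overlapped over nearly their whole range, with control mouse 4 above every carnitine mouse. The means were 9.93 ± 0.21 and 9.99 ± 0.18 (SD, n = 5 mice each), and the difference was 0.06 (SE 0.11, confidence interval -0.18 to 0.30, adjusted p 0.89 in limma). On leaving out single mice it ran from 0.0035 without carnitine mouse 3 to 0.15 without control mouse 4, and after cyclic loess it was -0.04.

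Hspb3 encodes a small family member that pairs with HSPB2 in muscle. Control mice had 7.66, 7.94, 7.85, 7.77 and 7.24, and carnitine mice had 7.82, 8.03, 7.88, 7.85 and 7.93. Control mouse 5 was far below the rest, and the other controls overlapped with the carnitine mice. The difference was 0.21 (SE 0.12, confidence interval -0.04 to 0.46, adjusted p 0.72 in limma). Without control mouse 5 it was 0.10 (SE 0.082), and without control mouse 2 it was 0.27 (SE 0.12, unadjusted p 0.040). Over all 20 alternatives the adjusted p ranged from 0.42 to 0.90. Its whole array stood apart, since its interquartile range was 2.20 and the other 9 arrays ran from 2.39 to 2.59. The part of this in the Hspb3 value of control mouse 5 was not tested.

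Cryab and Hspb7 encode abundant muscle forms, and HSPB7 binds filamin C. Cryab values were 11.79, 11.70, 11.43, 12.42 and 11.66 in control mice and 11.70, 11.57, 11.92, 11.85 and 11.20 in carnitine mice. Control mouse 4 was the highest and carnitine mouse 5 the lowest of the 10 mice, with the other 8 mice between them. Hspb7 values were 11.31, 11.52, 11.09, 11.96 and 11.34 in control mice and 11.14, 11.08, 11.48, 11.39 and 10.69 in carnitine mice. The same mice marked both ends, and from lowest to highest mouse the level differed 2.41-fold in Hspb7 and 2.33-fold in Cryab. Between the diets Hspb7 differed by -0.29 (SE 0.16, confidence interval -0.64 to 0.06, adjusted p 0.72 in limma), a 0.819-fold level. Cryab differed by -0.15 (SE 0.17, confidence interval -0.51 to 0.21, adjusted p 0.81 in limma). Without control mouse 4 the difference was -0.16 in Hspb7 and 0.003 in Cryab, so the sign of Cryab rested on that mouse. Hspb7 had an unadjusted p below 0.05 after cyclic loess (-0.37), without control mouse 3 (-0.38) and without carnitine mouse 3 (-0.37), and its adjusted p ranged from 0.55 to 0.99 over the 20 alternatives.

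A second, dimmer probe set of Cryab gave a difference of the same sign, but control mouse 4 stood less apart in it. Its means were 8.37 ± 0.47 with the control diet and 8.24 ± 0.41 with carnitine (SD, n = 5 mice each), and the difference was -0.14 (SE 0.22). Its highest value was again in control mouse 4 (8.83), with control mouse 1 close to it (8.79). Its lowest was again in carnitine mouse 5 (7.57), followed by control mouse 5 (7.72). In the brighter probe set these 2 control mice read 11.79 and 11.66, against 12.42 in control mouse 4.

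Hspb6 encodes a small heat shock protein that is phosphorylated by protein kinase A and is known from heart and smooth muscle. Its control values were 9.74, 9.97, 9.79, 10.00 and 9.96, and its carnitine values were 9.69, 9.55, 10.02, 9.83 and 9.58. Carnitine mice 1, 2 and 5 lay below every control, and carnitine mice 3 and 4 lay among or above them. The means were 9.89 ± 0.12 and 9.73 ± 0.19 (SD, n = 5 mice each). The difference was -0.16 (SE 0.10, confidence interval -0.37 to 0.06, adjusted p 0.72 in limma). After cyclic loess it was -0.26 with an unadjusted p of 0.034, and without carnitine mouse 3 it was -0.23 with an unadjusted p of 0.032. Its adjusted p ranged from 0.60 to 0.98 over the 20 alternatives.

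Hspb1, the stress-inducible member that binds actin and intermediate filaments, averaged nearly the same in both diets. It had 8.65, 8.54, 8.30, 8.93 and 7.76 in control mice and 8.55, 8.63, 8.68, 8.18 and 8.07 in carnitine mice. Both ends of the range were control mice, 4 at the top and 5 at the bottom. The means were 8.44 ± 0.44 and 8.42 ± 0.28 (SD, n = 5 mice each). The difference was -0.01 (SE 0.19, confidence interval -0.42 to 0.39, adjusted p 0.99 in limma). A second probe set with this symbol averaged 5.35 in control and 5.46 in carnitine, below the median probe set mean of 5.80, where the signal is weak.

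Several of the genes shared a pattern across single mice. Control mouse 4 was the highest of 10 in Hspb1, Hspb7, Cryab and Bag3, and carnitine mouse 5 was the lowest in Hspb7 and Cryab and the second lowest in Bag3. Over the 10 mice, Cryab correlated with Hspb7 (Pearson r 0.943, permutation p 0.00032, adjusted over 21 pairs 0.0067, Spearman rho 0.839, adjusted permutation p 0.039). Without control mouse 4 and carnitine mouse 5, the 2 mice farthest from the median of Hspb7, r was 0.732. Cryab correlated with Bag3 (r 0.824, permutation p 0.0015, adjusted 0.011, rho 0.701, adjusted 0.157), and r was 0.634 without the 2 mice farthest from the median of Cryab, which are the same mice. Hspb6 correlated with Hspb7 (r 0.816, permutation p 0.0016, adjusted 0.011, rho 0.903, adjusted 0.022), and r was 0.724 without carnitine mice 2 and 5, the farthest from the median of Hspb6. These were the 3 of 21 pairs with an adjusted p below 0.05 for Pearson's r.

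Of 11082 other genes with a mean above the median gene, 0.00902% correlated with Hspb7 as highly as Cryab did, which is 1 gene, and 0.018% correlated with Cryab as highly as Hspb7 did. For Cryab and Bag3 the share was 0.704% counted from Cryab and 0.424% counted from Bag3. For Hspb6 and Hspb7 it was 0.126% counted from Hspb6 and 0.668% counted from Hspb7. Once the group means had been taken out, r was 0.961 for Cryab and Hspb7, 0.907 for Cryab and Bag3 and 0.765 for Hspb6 and Hspb7 (exact permutation within groups, p 0.00069, 0.0033 and 0.013).

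Hspb8 stood outside this group of genes. Its r was -0.174 with Cryab, -0.288 with Hspb7 and -0.268 with Hspb6 (permutation p 0.61, 0.41 and 0.46). With the group means taken out these r were 0.027, 0.102 and 0.180 (exact permutation within groups, p 0.96, 0.83 and 0.54). The negative sign was therefore not kept within the groups. With Bag3, its partner in selective autophagy, r was 0.359 (permutation p 0.31, rho 0.456), and it was -0.056 without control mice 1 and 5. With Hspb3 it was 0.680 (permutation p 0.039, adjusted 0.116, rho 0.498), and it was 0.150 without control mice 1 and 5, so that relation rests on those mice. Of the other genes, 5.31% correlated with Hspb8 at least as highly as Hspb3 did, and 19.5% correlated with Hspb3 as highly as Hspb8 did.

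**Figure D2:**
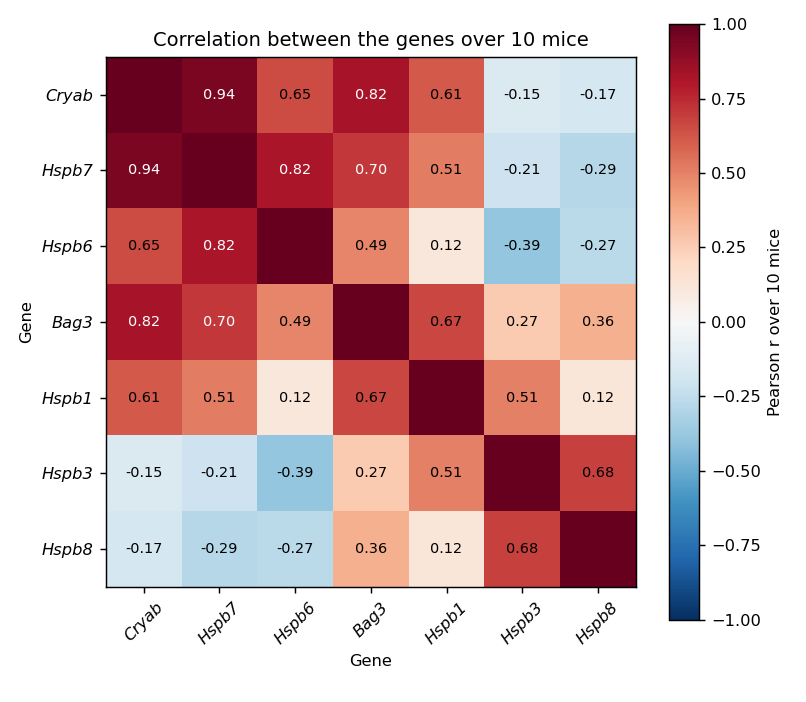
Pearson correlation over 10 mice between the RMA log2 values of each pair of genes, with r printed in each field and colour from -1 (blue) to 1 (red). Cryab, Hspb7, Hspb6 and Bag3 form a block of positive r up to 0.94, and Hspb3 and Hspb8 have negative r with Cryab, Hspb7 and Hspb6.

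The genes whose levels were most like each member over the 10 mice were taken among 10348 named genes above the median signal. A high r is bound to occur among so many genes, so these are descriptions. For Hspb7 they were Actn2 (r 0.950), which encodes the Z-disc actinin, Myot (0.935), the Z-disc protein myotilin, and Tspan3 (0.934). For Cryab they were Actn2 (0.951), Slc43a2 (0.943) and Plin3 (0.942). Actn2 itself had its highest value in control mouse 4 (13.05) and its lowest in carnitine mouse 5 (12.04), and it differed between diets by -0.16 (SE 0.16). For Hspb6 they were Paqr4 (0.942), Dok7 of the neuromuscular junction (0.904) and P3h2 (0.887). For Bag3 they were Pkn3 (0.927), Grpel2 (0.924) and Cox6a1 (0.913), and for Hspb1 Pde8a (0.940), Pofut2 (0.935) and the endothelial marker Pecam1 (0.924). For Hspb8 they were Ccnt1 (0.946), Alg2 (0.939) and Sde2 (0.935), and for Hspb3 Trim13 (0.975), Ahcyl1 (0.966) and Ckap5 (0.965).

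Slow-fibre genes varied strongly between these mice, so the small heat shock genes were set beside them. The slow-fibre score, the mean log2 value of 14 markers such as the slow myosin Myh7 and the slow troponin Tnnc1, ran from 8.61 to 9.43 in control mice. The top score was in control mouse 4, where the marker Sln read 9.45, against 5.77 to 7.07 in the other controls. Myh7 and Tnnc1 were highest in control mouse 1 (11.29 and 10.97, against 10.88 and 10.64 in control mouse 4). The score was 8.01, 7.42, 8.89, 9.18 and 6.94 in carnitine mice 1 to 5. Carnitine mice 1, 2 and 5 lay below every control. Of the 14 markers 13 had a negative difference, 9 of them with an unadjusted p below 0.05 and 0 past the adjusted threshold. In all genes 6.97% had such a p in either direction and 47.7% had a positive difference. Among genes above the median signal, where all 14 markers lay, these shares were 6.66% and 67.8%. None of the 7 genes is part of the score.

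Over the 10 mice Hspb7, Hspb6 and Cryab followed the score. For Hspb7 r was 0.803 (permutation p 0.0035, adjusted over 7 genes 0.024), for Hspb6 0.745 (permutation p 0.013, adjusted 0.030) and for Cryab 0.740 (permutation p 0.012, adjusted 0.030). Among other genes above the median signal 0.623%, 1.14% and 1.20% had an r as high. Spearman's rho was 0.673, 0.624 and 0.790, and 0 of the 7 passed after adjustment (lowest adjusted permutation p 0.061, for Cryab). Bag3 had r 0.533 (adjusted permutation p 0.19), Hspb1 0.288 (0.42), Hspb3 -0.350 (0.37) and Hspb8 -0.469 (0.23), and their rho was 0.480, 0.479, -0.578 and -0.418. Without carnitine mice 5 and 2, whose scores were farthest from the median, r was 0.591 for Hspb7, 0.585 for Cryab and 0.311 for Hspb6 (exact permutation p 0.13, 0.13 and 0.46), so the relation rests in part on those 2 mice. The 3 calls were also all lost without control mouse 4, without carnitine mouse 2 or without carnitine mouse 5, and 1 was left without carnitine mouse 1. Without control mouse 4, r was still 0.800 for Hspb7, 0.740 for Cryab and 0.701 for Hspb6. In the same order it was 0.809, 0.760 and 0.662 without carnitine mouse 2, and 0.655, 0.585 and 0.655 without carnitine mouse 5.

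With the group means taken out, r with the slow-fibre score was 0.762 for Bag3, 0.747 for Cryab, 0.745 for Hspb7 and 0.656 for Hspb6 (exact permutation within groups, adjusted p 0.0088, 0.0088, 0.024 and 0.19). Within control mice alone r was 0.752, 0.764, 0.541 and -0.162 for these genes in the same order. Within carnitine mice alone it was 0.923, 0.926, 0.938 and 0.865. Each of these r rests on 5 mice, and the scores spanned 8.61 to 9.43 in control and 6.94 to 9.18 in carnitine mice. Whether r of Hspb6 differed between the diets was not tested. In carnitine mice in order of rising score, 5, 2, 1, 3 and 4, Cryab read 11.20, 11.57, 11.70, 11.92 and 11.85. Bag3 read 9.76, 9.89, 10.01, 10.22 and 10.09 in that order. Both genes therefore climbed with the score over the first 4 of these mice and were slightly lower in the last. Hspb8 read 10.78, 10.77, 10.79, 10.81 and 10.72 and showed no such climb.

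**Figure D3:**
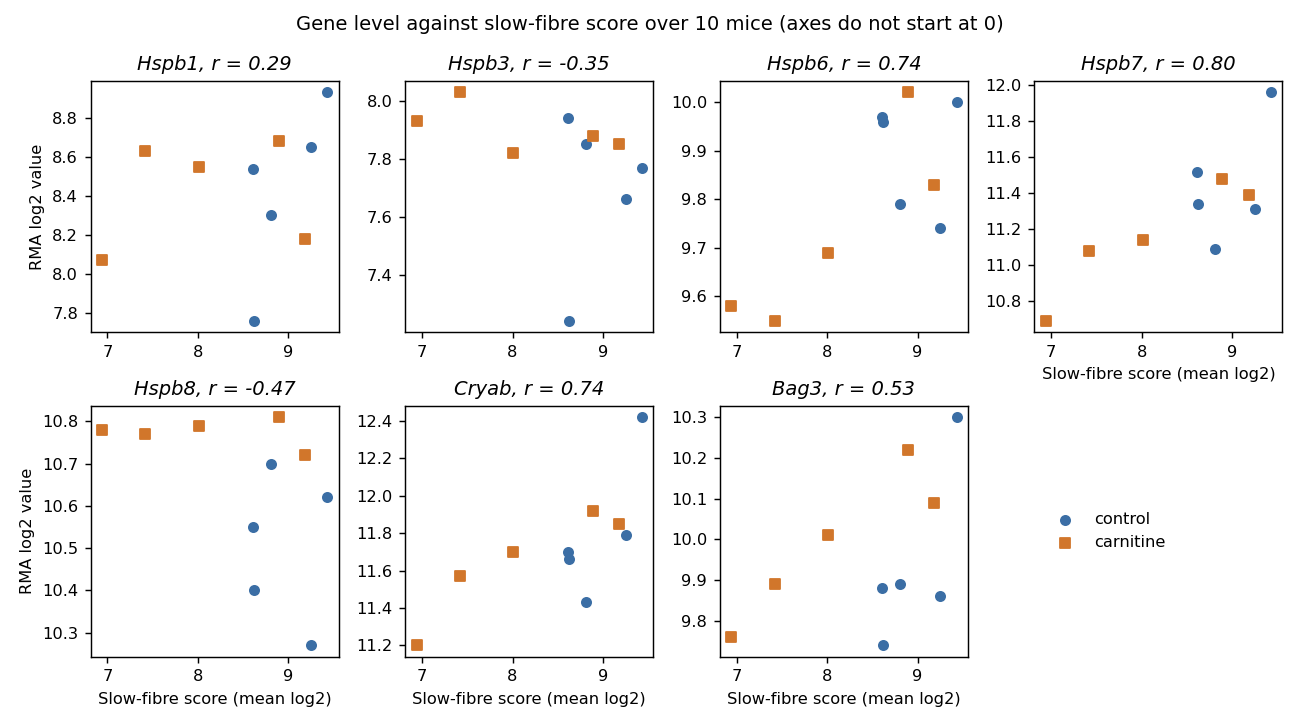
RMA log2 value of each gene against the slow-fibre score (mean log2 value of 14 markers) in 10 mice, circles for control and squares for carnitine, with Pearson r in each title. Hspb6 lies below all controls in the 3 carnitine mice with scores from 6.94 to 8.01, while Hspb8 stays between 10.72 and 10.81 in all carnitine mice.

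The comparison of diets was refitted with the slow-fibre score as a covariate. The score itself differed between the diets, so this fit does not show what the diet would do at an equal share of slow fibres. The difference became -0.01 in Hspb7 (SE 0.14) and -0.03 in Hspb6 (SE 0.10), against -0.29 and -0.16 without the covariate. In Cryab it turned to 0.14 (SE 0.14) and in Hspb1 to 0.13 (SE 0.22). Hspb8 kept nearly the same difference, 0.25 (SE 0.10, confidence interval 0.03 to 0.47, unadjusted p 0.027), and Bag3 moved to 0.24 (SE 0.11, confidence interval 0.01 to 0.47, unadjusted p 0.043). These 2 of 7 genes had an unadjusted p below 0.05, against 5.69% of all genes in that fit, and the adjusted p was 0.87 for both. Over the 20 alternatives that of Bag3 ranged from 0.83 to 0.997. Hspb3 differed by 0.19 (SE 0.15).

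**Figure D4:**
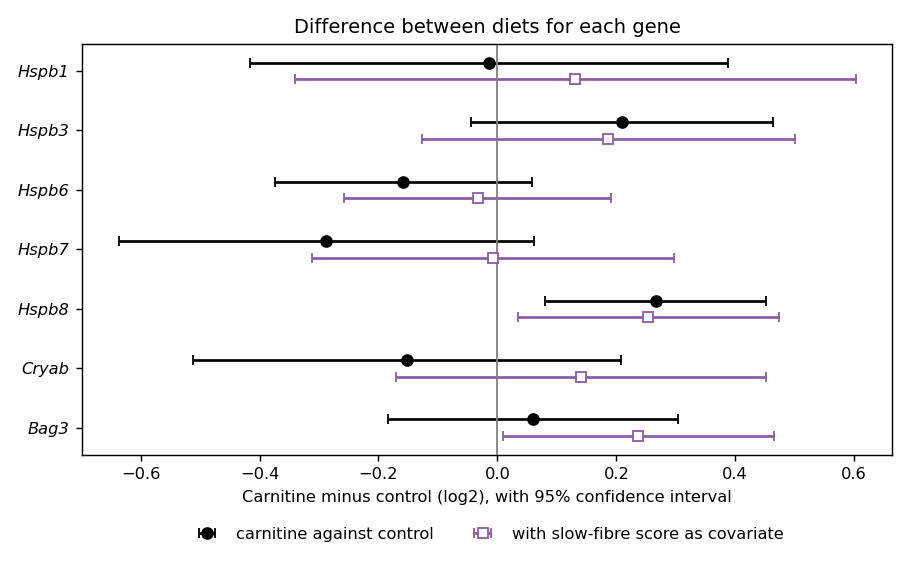
Difference between carnitine and control (log2) for each gene with its 95% confidence interval, from 5 mice per group, without (filled circles) and with (open squares) the slow-fibre score as covariate. Hspb7 moves from -0.29 to -0.01 and Bag3 from 0.06 to 0.24, while Hspb8 is 0.27 and 0.25.

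Other chaperone genes were read from lists, to be set against the 67.8% positive differences and the median of 0.06 of genes above the median signal, where all but 1 of the genes in the next 4 lists lay. Of 19 measured genes of heat shock factors and heat shock chaperones, 16 had a positive difference, 2 of them with an unadjusted p below 0.05, and the median was 0.08. The share with such a p in that direction was 5.34% among genes above the median signal and 3.14% among all genes. Hspe1, the mitochondrial co-chaperonin, had means of 6.29 ± 0.20 with the control diet and 6.64 ± 0.14 with carnitine (SD, n = 5 mice each, difference 0.35, SE 0.11, adjusted p 0.71 in limma). Its groups did not overlap, which held for 1.11% of all genes, and it was named for the smallest p of this list. Stip1, which links Hsp70 to Hsp90, differed by 0.23 (SE 0.11) and the heat shock factor gene Hsf2 by 0.26 (SE 0.13). None of the 19 passed the adjusted threshold, and Hsf1, Dnaja1 and Hsp90ab1 of this list were not measured.

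Among 11 measured partners of chaperone-assisted selective autophagy, 9 had a positive difference, 0 had an unadjusted p below 0.05, and the median was 0.08, beside 67.8% and 0.06 for genes above the median signal. The client filamin C (Flnc) differed by -0.34 (SE 0.18). Its control values were 11.19, 10.71, 10.89, 11.54 and 10.37 and its carnitine values 10.67, 10.69, 10.78, 10.61 and 10.26, so control mouse 4 was the highest and carnitine mouse 5 the lowest here too. Map1lc3b, the autophagosome protein LC3B, differed by 0.12 (SE 0.072) and Wipi1, which acts early in autophagosome formation, by 0.15 (SE 0.11). The constitutive Hsp70 partner Hspa8 differed by 0.08 (SE 0.077) and the autophagy receptor Sqstm1 by 0.09 (SE 0.085). Stub1 of this list was not measured.

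Of 18 genes of the Z-disc, of desmin and related filaments and of titin, 13 had a negative difference, the median was -0.05, and 3 had an unadjusted p below 0.05, beside 6.66% of genes above the median signal and 6.97% of all genes. These were Csrp3, the muscle LIM protein, at -0.89 (SE 0.30), the filament gene Vim at 0.36 (SE 0.11) and the Z-disc gene Myoz1 at 0.22 (SE 0.080), none past the adjusted threshold (adjusted p 0.71 for each in limma). Vim is also expressed in fibroblasts, whose 10 markers all had a positive difference (median 0.19, 0 with an unadjusted p below 0.05), and their part in the Vim value was not tested. Csrp3 was highest in control mouse 4 (11.97) and lowest in carnitine mouse 5 (9.21). The desmin gene Des itself differed by 0.08 (SE 0.068) and Ttn by -0.01 (SE 0.059). Of 4 other genes listed under the small heat shock family, 3 had a positive difference. They were Odf1 at 0.21 (SE 0.089), the lens crystallin gene Cryaa at 0.12 (SE 0.13) and Hspb9 at 0.08 (SE 0.096). Hspb11 differed by -0.05 (SE 0.10), and the median of the 4 was 0.10.

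**Figure D5:**
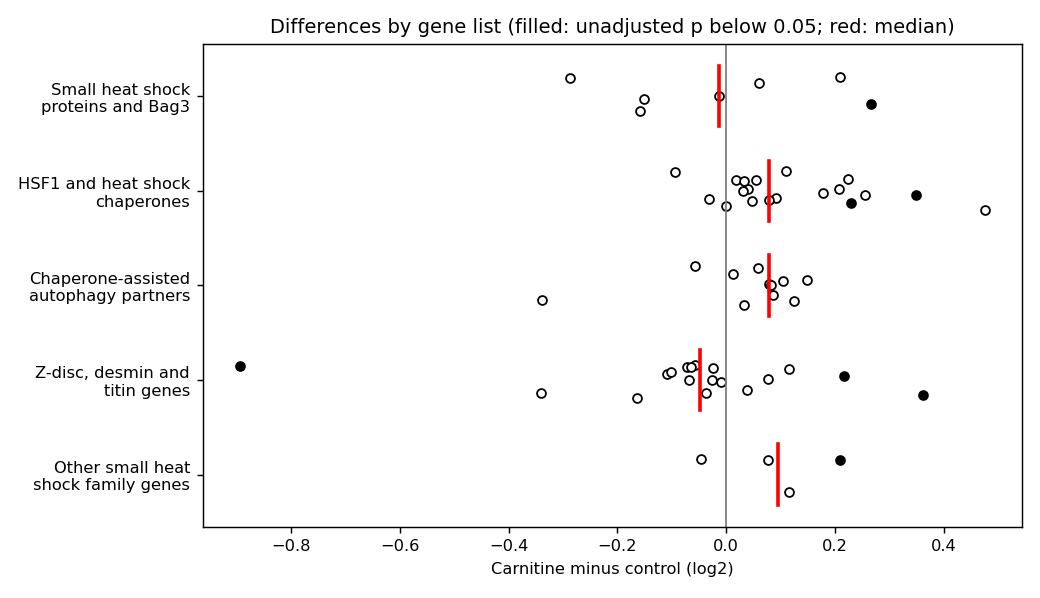
Difference between carnitine and control (log2) of every measured gene in 5 lists, 1 point per gene, filled where the unadjusted p in limma was below 0.05, with the median of each list in red and vertical scatter for legibility only. The medians lie between -0.05 and 0.10, and the filled points are Hspb8, 2 of 19 heat shock chaperone genes, 3 of 18 Z-disc genes and Odf1.

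Markers of other cells that express small heat shock proteins were compared as well. The score of 7 defining skeletal muscle markers, Ckm and Acta1 among them, was 13.02 to 13.11 in control and 13.05 to 13.16 in carnitine. Of 13 fast-fibre markers 11 had a positive difference, 2 with an unadjusted p below 0.05, and the score was 12.83 to 12.93 in control and 12.91 to 12.97 in carnitine. Of genes above the median signal, 67.8% had a positive difference and 5.34% had such a p with a higher level in carnitine muscle. For 11 smooth muscle and pericyte markers the score was 8.36 to 8.58 and 8.45 to 8.64, for 10 endothelial markers 7.59 to 8.27 and 7.82 to 8.24, and for 10 fibroblast markers 7.67 to 8.43 and 8.01 to 8.56. For 8 adipocyte markers it was 7.10 to 7.59 and 7.08 to 7.36, for 9 macrophage markers 6.10 to 6.68 and 6.13 to 6.51, and for 6 Schwann cell and nerve markers 6.12 to 6.45 and 6.16 to 6.63. The ranges of the diets overlapped for each of these lists. In whole muscle, fewer fibres of a type and less RNA per fibre cannot be told apart.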

How the data were processed

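The deposited values are log2 values which, per the labels, the authors made with RMA in Affymetrix Expression Console from Affymetrix arrays of muscle RNA, 34390 probe sets on 10 arrays. Their versions and the genome build are not given in the sources used. Names came from the annotation of the array platform: 23521 had 1 symbol and were used, 1814 had several, and 9055 are unnamed here. With the brightest probe set per gene, 22180 genes were tested with limma 3.58.1 in R 4.3.3 (lmFit, eBayes with trend, Benjamini-Hochberg over all genes, two-sided), with no filter on dim signal. All 7 genes lay above the median probe set mean of 5.80. Correlations used 100000 permutations over 10 mice and exact permutation for fewer, two-sided. The fit, permutations and motif search were tested on simulated data. The genes and the 4 pathway and 9 marker lists were chosen with earlier results of these data known. Named genes are the 7 genes, per pathway list the 3 with the smallest p and per gene the 3 most alike. Actn2, Des, Ttn, Hspa8 and Sqstm1, and the genes under other observations, were added after their values were seen. Nothing in the labels gives a batch, and array number limits the precision.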

Additional observations from a re-analysis of the deposited data

Results flagged for a closer look

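Samples far from the rest of their group were searched for in the 7 genes, the named pathway genes and the slow-fibre score, as a gap to the nearest mouse above 0.71 of the range of 5 mice. Chance flags about 1 in 20 groups, and 40 groups were searched. Bag3 in control mouse 4 was 10.30, against 9.74 to 9.89 in the other controls. That mouse was also the highest of all in Hspb1, Hspb7 and Cryab. Wipi1 was 8.09 in control mouse 5, against 8.44 to 8.57 in the other controls, and 8.29 in carnitine mouse 5, against 8.56 to 8.67. Hspe1 was 5.94 in control mouse 5, against 6.32 to 6.45. The whole array of control mouse 5 had an interquartile range of 2.20, against 2.39 to 2.59 in the others. The part of this in its Wipi1 and Hspe1 values was not tested.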

How the results depend on the processing

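With the replicate number as a block, 1 of the 7 genes had an unadjusted p below 0.05 and 0 genes of the array passed the adjusted threshold, as without it. Residuals of mice with the same number correlated from -0.132 to 0.236 over all genes, and 2 of 5 mice correlated best with their own number, so the numbers are not taken to pair the mice. The count of the 7 genes with an unadjusted p below 0.05 was 3 after cyclic loess and 2 with the slow-fibre covariate, where 5 of the 7 differences were positive. Leaving out each mouse in turn gave 1 to 3 genes with an unadjusted p below 0.05, 3 to 5 positive differences, 0 to 3 genes correlated with the slow-fibre score and 0 to 1 genes of the array past the adjusted threshold. Without the 2 mice farthest from the median score 0 of the 7 correlations passed, and r of Hspb3 was 0.031. Signs turned in Hspb1 after median centring (0.016), for the mean of its probe sets (0.049) and with the covariate (0.13), in Cryab with the covariate (0.14) and in Bag3 after cyclic loess (-0.038). On leaving out single mice the difference ran from -0.18 to 0.11 in Hspb1 and from -0.24 to 0.003 in Cryab. In Hspb3, Hspb6, Hspb7 and Hspb8 every alternative kept the direction. No alternative moved the median of all genes by over 0.1. Cyclic loess still lowered the difference of each of the 7 genes, from 0.27 to 0.18 in Hspb8 and from 0.06 to -0.038 in Bag3. The median over all genes cannot show a shift of bright genes, whose median difference was 0.06 in the main fit. The cause of these changes was not tested.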

Other observations

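Hspa1a and Hspa1b, inducible chaperone genes, varied more between the mice than the small heat shock genes, and in another order. These genes were singled out after their values had been seen. Hspa1a, an Hsp70 gene, read 6.10, 8.61, 6.46, 7.34 and 7.86 in control mice 1 to 5 and 7.94, 8.75, 8.47, 6.78 and 5.47 in carnitine mice. Hspa1b, a near-identical paralog, read 6.42, 8.85, 6.49, 7.82 and 8.16 in control and 8.40, 8.84, 8.95, 6.98 and 6.95 in carnitine. Because the paralogs are so alike, the values of both are uncertain and cannot be taken as independent of each other. Control mouse 2 and carnitine mice 2 and 3 were the highest 3 in both genes. The Hsp40 gene Dnajb1 had 7.67 in control mouse 2 and 7.67, 7.81 and 7.70 in carnitine mice 1 to 3, against 7.00 to 7.39 in the other controls and 7.06 and 7.18 in carnitine mice 4 and 5.

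Control mouse 4, which had the highest Cryab, Hspb7, Bag3 and Hspb1, stood in the middle of these genes, with 7.34 in Hspa1a and 7.21 in Dnajb1. Between the diets Hspa1a differed by 0.21 (SE 0.57), Hspa1b by 0.48 (SE 0.49) and Dnajb1 by 0.22 (SE 0.16), none past the adjusted threshold in limma.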
